A study of Rattus norvegicus with 18 samples.

Results

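The 10 genes, for adrenergic and muscarinic receptors and acetylcholine breakdown, were chosen by name with earlier results of these data known. The list was Adra1b, Adra1d, Adra2a, Adra2c, Adrb1, Chrm1, Chrm2, Chrm3, Chrm4 and Ache. Of these, 9 had a probe set that the platform's annotation tied to that gene's symbol alone. They were measured by 11 probe sets, out of 31099 probe sets and 14218 named genes on the array. Adra2a and Chrm3 had 2 probe sets each, and the other 7 genes had 1. Ache, the enzyme that breaks down acetylcholine, was not analysed here because no probe set carried its symbol in that annotation.

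Total RNA from rat amygdala, hippocampus and cortex was hybridised to 18 Affymetrix arrays. In each region, 3 arrays came from rats under chronic immobilization stress and 3 from rats that were only handled, which gave 6 groups. Whether the 3 arrays of a group were separate animals, pools or repeats is not given in the sources used here. Each p-value therefore sets a difference only against the spread of arrays within the 6 groups, and part of that spread may be technical. Strain, age and the schedule of stress are likewise not given there. Region came from the title and description of each array, since a further field named the amygdala for all 18.

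Noradrenaline, released by the locus coeruleus across the forebrain during arousal and stress, acts through adrenergic receptors. Acetylcholine from the basal forebrain and from local neurons acts through muscarinic and nicotinic receptors. The alpha-1 receptors (Adra1b, Adra1d) and the muscarinic receptors Chrm1 and Chrm3 couple to the G protein Gq and to phospholipase C. The alpha-2 receptors (Adra2a, Adra2c) and Chrm2 and Chrm4 couple to Gi and Go, which lower cAMP, and many alpha-2 and Chrm2 receptors sit on the nerve endings whose release they limit. Adrb1, a beta receptor, couples to Gs and raises cAMP.

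Values are linear probe set intensities as deposited. They look scaled to a common level, since every array has nearly the same trimmed mean, between 150.04 and 150.05. Intensities are not comparable between probe sets, so each receptor is compared only with itself. A difference is given on the log2 scale after adding 16 to each intensity, with its standard error, and passed the test at a limma adjusted p of 0.05 or less over 18625 probe sets above the 40th percentile of mean intensity (about 30.1). On this scale the change of dim probe sets is understated. Region markers mostly followed the titles. In handled arrays, 5 of 6 markers of the hippocampus passed there against amygdala, 5 of 5 amygdala markers against hippocampus, and between amygdala and cortex 4 of 5 amygdala markers and 4 of 9 neocortex markers passed in the direction of their name. In bulk tissue, fewer cells of a type and less RNA per cell cannot be told apart.

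Of the 11 receptor probe sets, 8 were above the filter: those of Adra1b, Adra1d, Adra2c, Adrb1 and Chrm4, both of Chrm3, and 1 of the 2 of Adra2a (1393048_at). Chrm2 (1369245_at, 2.61 to 25.0) and the other Adra2a probe set (1387708_at, 1.81 to 26.4) were dim on all 18 arrays. Chrm1 (1387736_at, 4.10 to 56.3) was just outside the filter, at percentile 39.8, and Adrb1 (1369806_at, 5.15 to 56.3) was just inside, at percentile 41.5. The other 7 kept probe sets ranged from 19.5 to 356 over the 18 arrays.

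The main pattern lay between regions. Adra1d and Chrm3 ran from high in hippocampus through cortex to low in amygdala, while Adra2a was high in amygdala and cortex and low in hippocampus. Adra2c was highest in amygdala, and Adra1b was higher in cortex than in hippocampus. None of the 8 kept probe sets passed the test between stress and handling in any region.

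The sequences around the annotated starts of the 3 genes with the largest region differences are shown. They are from RefSeq on the rat build GRCr8, each running 5′ to 3′ on the gene's strand from 250 bases before to 50 bases after the annotated start, and capitals mark any match to a searched motif.
Adra1d, chr3:139262282-139262581, minus strand: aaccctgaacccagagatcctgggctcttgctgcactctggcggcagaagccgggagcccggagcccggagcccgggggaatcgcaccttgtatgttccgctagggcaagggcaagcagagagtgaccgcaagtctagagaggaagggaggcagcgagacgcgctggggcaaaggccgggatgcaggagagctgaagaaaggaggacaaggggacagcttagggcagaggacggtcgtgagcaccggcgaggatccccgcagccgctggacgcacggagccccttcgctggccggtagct
Chrm3, chr17:64696677-64696976, plus strand: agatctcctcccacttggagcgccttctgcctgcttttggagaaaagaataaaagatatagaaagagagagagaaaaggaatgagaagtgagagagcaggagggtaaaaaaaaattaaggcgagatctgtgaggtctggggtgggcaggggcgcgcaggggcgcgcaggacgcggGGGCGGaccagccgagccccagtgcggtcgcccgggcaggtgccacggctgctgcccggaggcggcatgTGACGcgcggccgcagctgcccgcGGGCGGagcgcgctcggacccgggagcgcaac
Adra2a, chr1:263066530-263066829, plus strand: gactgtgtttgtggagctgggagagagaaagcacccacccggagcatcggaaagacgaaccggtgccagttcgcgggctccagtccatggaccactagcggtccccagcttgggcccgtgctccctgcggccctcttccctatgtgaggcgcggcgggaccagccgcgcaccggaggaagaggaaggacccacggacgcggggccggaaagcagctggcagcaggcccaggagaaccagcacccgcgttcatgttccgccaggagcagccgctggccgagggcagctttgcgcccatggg

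All 9 measured genes had an entry in the table of such windows, which holds 33469 windows of 300 bases. On both strands, the GC box GGGCGG was found in 5 of the 9 and in 33.1% of all windows, and CCAAT in 2 of the 9 and 37.5% of all. The cAMP response element TGACGTCA was in 0 of the 9 and 1.83% of all, and its half-site TGACG, which overlaps it, in 3 of the 9 and 21.2% of all. TATAAA (0 of 9, 14.2% of all) and the glucocorticoid receptor half-site TGTTCT (0 of 9, 20.7% of all) had no match in the 9 windows. Chrm3 held 2 GC boxes and 1 TGACG. The Adra1d and Adra2a windows held none of these motifs. In the Adra2a window the 50 bases after the annotated start begin with ATG, so this start may be that of the coding sequence. That window may then lie later in its gene than those of Adra1d and Chrm3 do. With no match in the Adra1d window, Adra1d and Chrm3 could share none of these motifs. The windows thus say nothing about their shared order of regions. The GC content of the windows was 65.7% for Adra1d, 64% for Chrm3 and 68% for Adra2a, against a median of 51.7% over all windows, and the 3 windows held 22, 28 and 25 CG dinucleotides, against a median of 7.

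**Figure D1:**
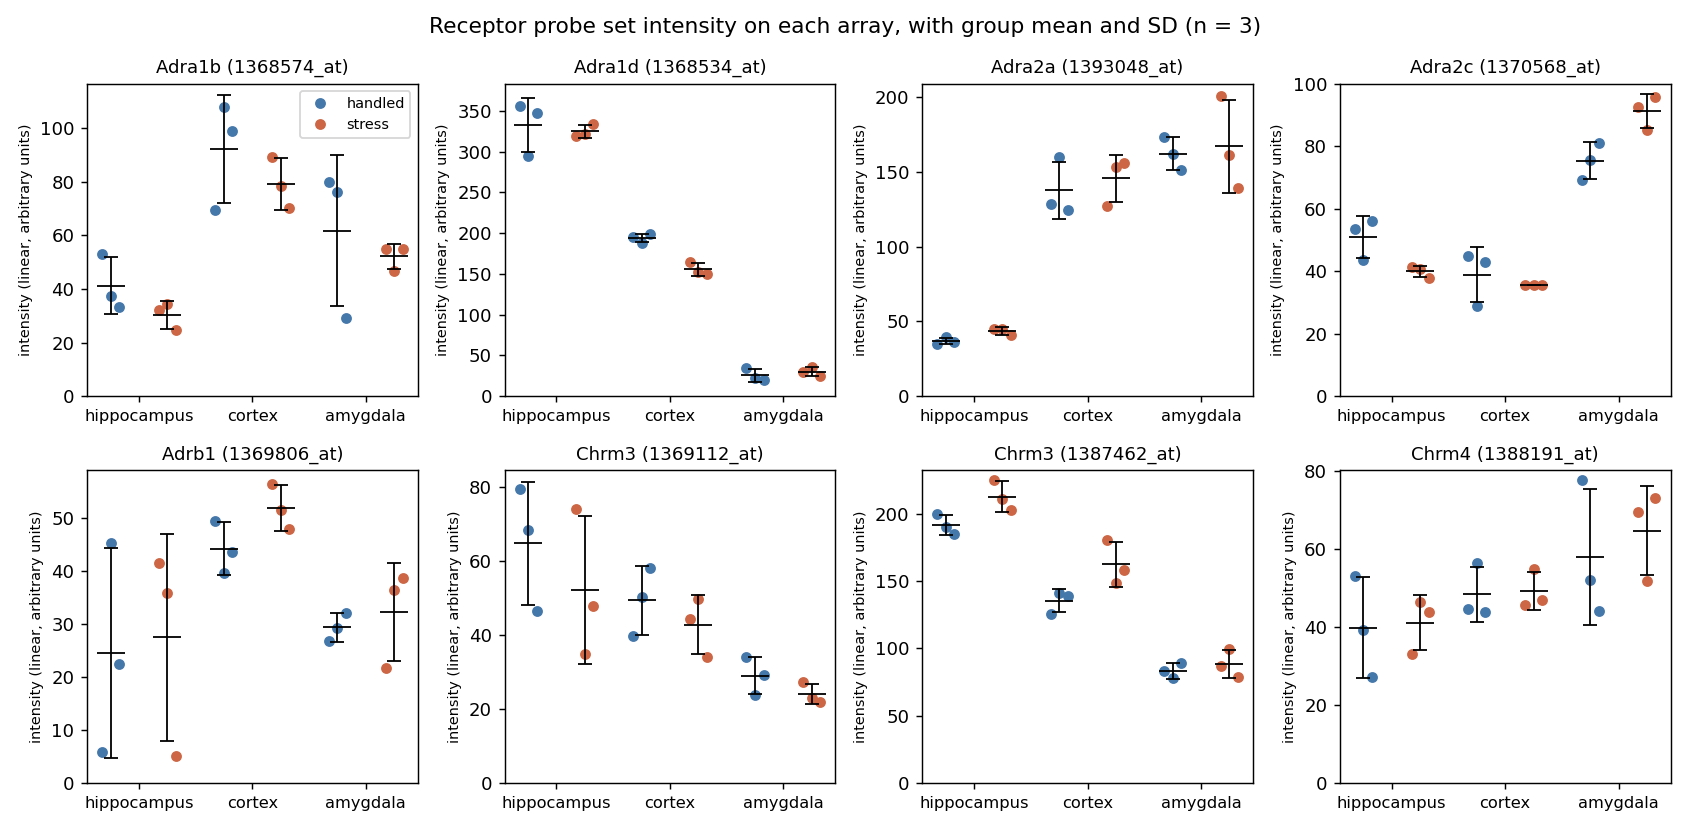
Intensity (linear, arbitrary units) of the 8 kept receptor probe sets on each of the 18 arrays, by region, with handled arrays in blue and stress arrays in orange; black bars are the group mean and SD (n = 3). Adra1d and Chrm3 (1387462_at) step down from hippocampus to cortex to amygdala, Adra2a is low in hippocampus only, and handled and stress points lie close together beside these steps.

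Adra1d, an alpha-1 receptor, had the widest range over the regions. In handled rats its intensity was 356, 295 and 348 on the 3 hippocampus arrays, a mean of 333 ± 33.1 (SD, n = 3). It was 195, 188 and 199 in cortex (194 ± 5.39). In amygdala it was 34.6, 22.4 and 19.5 (25.5 ± 8.05), near the filter level of 30.1. No array of one region overlapped another, in handled or in stress rats. Handled hippocampus exceeded handled amygdala 13.1-fold in mean intensity, with a log2 difference, amygdala minus hippocampus, of -3.08 ± 0.13 (adjusted p 1.19e-14). Handled cortex exceeded amygdala 7.61-fold, at -2.36 ± 0.13 for amygdala minus cortex (adjusted p 9.52e-12). Hippocampus exceeded cortex 1.71-fold, at 0.73 ± 0.13 (adjusted p 1.22e-04). The amygdala values were dim, and the size of the steps to amygdala moved with the added constant: amygdala minus cortex was -2.92 with 1 and -1.53 with 64 in place of 16.

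The other alpha-1 receptor, Adra1b, was not ordered like Adra1d. Its handled intensities were 69.6, 108 and 99.0 in cortex, 80.0, 76.2 and 29.2 in amygdala and 53.2, 37.5 and 33.2 in hippocampus. The cortex arrays all lay above the hippocampus arrays, and the amygdala arrays reached into both, since 1 of them (29.2) was below every handled hippocampus array. Hippocampus minus cortex was -0.92 ± 0.23 (adjusted p 0.00397), a 2.23-fold lower mean in hippocampus. Amygdala did not pass against cortex (-0.54 ± 0.23, adjusted p 0.126) or against hippocampus (0.38 ± 0.23, adjusted p 0.239). Without that array, handled amygdala replicate 3, the difference to hippocampus passed at 0.73 (adjusted p 0.00827).

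Chrm3, the Gq-coupled muscarinic receptor, followed the order of Adra1d. Probe set 1387462_at gave 199.7, 190.1 and 185 on the handled hippocampus arrays (192 ± 7.57, SD, n = 3). It gave 125, 141 and 139 in cortex (135 ± 8.49) and 83.3, 77.6 and 89.4 in amygdala (83.4 ± 5.93). Again no arrays of different regions overlapped within handled or within stress rats. Amygdala minus hippocampus was -1.06 ± 0.11 (adjusted p 6.08e-08), a 2.30-fold lower mean in amygdala. Amygdala minus cortex was -0.60 ± 0.11 (adjusted p 3.61e-04) and hippocampus minus cortex 0.46 ± 0.11 (adjusted p 0.00253).

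The second Chrm3 probe set, 1369112_at, was dimmer and more scattered. It gave 79.4, 68.5 and 46.5 in handled hippocampus, 39.7, 50.3 and 58.3 in cortex and 34.0, 23.9 and 29.2 in amygdala. Its group means came in the same order, but the hippocampus and cortex arrays overlapped. Only its amygdala minus hippocampus difference passed, at -0.83 ± 0.21 (adjusted p 0.00496). Amygdala minus cortex was -0.54 ± 0.21 (adjusted p 0.10), although all 3 amygdala arrays were below all 3 cortex arrays. Over the 18 arrays the intensities of the 2 Chrm3 probe sets correlated at r = 0.786, as a description of probe sets that share a target gene and arrays.

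Adra2a, an alpha-2 receptor, had low values in hippocampus. Probe set 1393048_at gave 35.2, 39.5 and 36.0 on the handled hippocampus arrays (36.9 ± 2.29, SD, n = 3). It gave 128, 159.7 and 125 in cortex (138 ± 19.3) and 173, 162 and 151 in amygdala (162 ± 10.9). Every hippocampus array, handled or stressed, lay far below every cortex and amygdala array, while cortex and amygdala overlapped. Handled amygdala exceeded hippocampus 4.39-fold, with a difference of 1.75 ± 0.14 (adjusted p 5.91e-10), and cortex exceeded hippocampus 3.72-fold, with hippocampus minus cortex at -1.53 ± 0.14 (adjusted p 5.26e-09). Amygdala minus cortex was 0.22 ± 0.14 (adjusted p 0.320), with a 95% confidence interval from -0.06 to 0.50.

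The second Adra2a probe set, 1387708_at, was below the filter. It gave 3.62, 1.81 and 7.12 in handled hippocampus, 26.4, 20.4 and 21.6 in cortex and 6.89, 4.53 and 13.7 in amygdala. When no filter was applied, handled hippocampus minus cortex was -0.95 ± 0.26 (adjusted p 0.0140), the same direction as the brighter probe set. It differed from that probe set in amygdala, where its handled arrays lay below the cortex arrays (-0.69 ± 0.26, adjusted p 0.127 with no filter). The 2 Adra2a probe sets correlated at r = 0.572 over the 18 arrays.

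**Figure D2:**
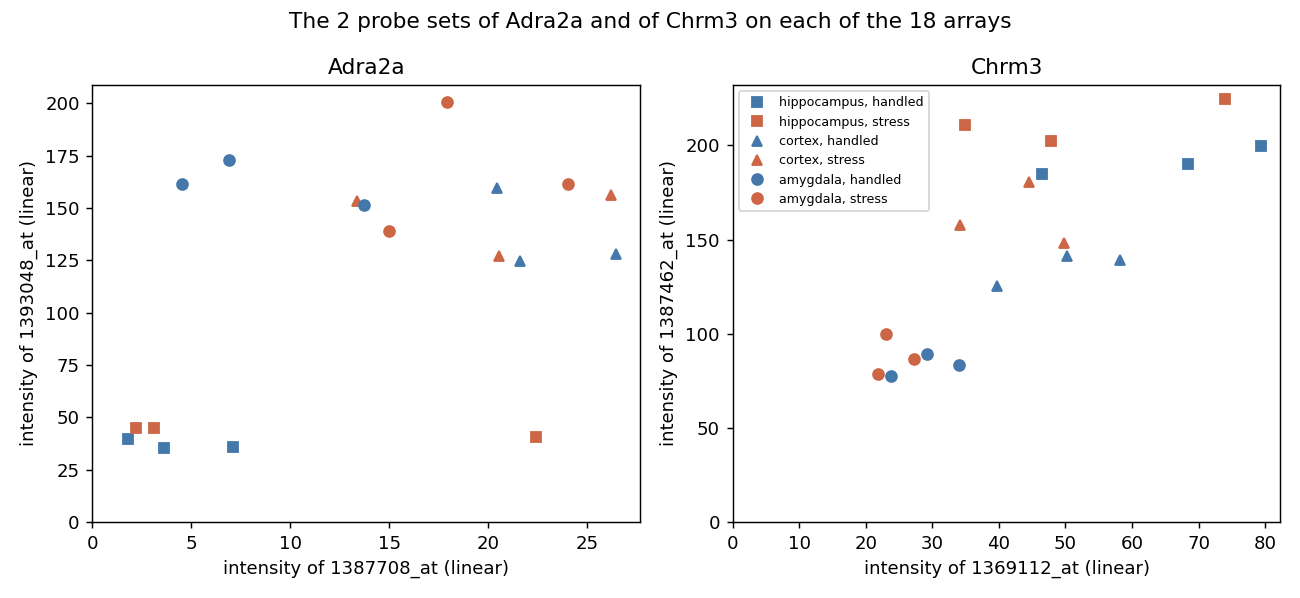
Linear intensity of the 2 probe sets of Adra2a and the 2 of Chrm3 on each of the 18 arrays, with region by symbol and treatment by colour. The Chrm3 probe sets rank the regions alike (r = 0.786), while for Adra2a (r = 0.572) both are low in most hippocampus arrays and part ways in handled amygdala.

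Adra2c, the other alpha-2 receptor, had its high values in amygdala. Handled intensities were 69.4, 75.8 and 81.2 in amygdala (75.5 ± 5.90, SD, n = 3). They were 53.7, 43.5 and 56.0 in hippocampus (51.0 ± 6.64) and 44.8, 28.8 and 43.0 in cortex (38.9 ± 8.77). The amygdala arrays stood above all others, and hippocampus and cortex overlapped. Amygdala minus cortex was 0.75 ± 0.16 (adjusted p 0.00164), a 1.94-fold higher mean in amygdala. Amygdala minus hippocampus was smaller, at 0.45 ± 0.16 (adjusted p 0.0331). That call was lost without handled amygdala replicate 2 (adjusted p 0.0755) or 3 (0.107) or handled hippocampus replicate 2 (0.123), and with no filter, median centring or a fit of these groups alone. Over all alternatives its adjusted p ran from 0.00517 to 0.123.

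Adrb1, the Gs-coupled beta-1 receptor, was dim and scattered. Handled intensities were 49.5, 39.6 and 43.5 in cortex, 26.7, 29.2 and 32.0 in amygdala and 5.80, 45.3 and 22.5 in hippocampus. Cortex was above amygdala on all arrays, while the hippocampus arrays spread from below to above the amygdala range. Hippocampus minus cortex was -0.69 ± 0.32 (adjusted p 0.128) and amygdala minus cortex -0.41 ± 0.32 (adjusted p 0.464), so neither passed. Without handled hippocampus replicate 2, the one hippocampus array that reached cortex levels, hippocampus minus cortex passed at -1.05 (adjusted p 0.0217).

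Chrm4, the Gi-coupled muscarinic receptor that is abundant in striatal projection neurons, overlapped between the regions in handled rats. Its intensities were 77.6, 52.1 and 44.2 in amygdala, 44.7, 56.5 and 43.9 in cortex and 53.0, 39.3 and 27.2 in hippocampus. Amygdala minus hippocampus, the largest of its handled differences, was 0.41 ± 0.20 (adjusted p 0.137), with an interval from -0.01 to 0.82. It passed at 0.57 (adjusted p 0.0494) only when handled hippocampus replicate 1 was left out.

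Of the dim muscarinic receptors, Chrm1, the main Gq-coupled muscarinic receptor of forebrain pyramidal neurons, gave 36.4, 38.3 and 32.1 in handled hippocampus, 37.9, 29.9 and 7.47 in cortex and 25.8, 12.2 and 25.5 in amygdala. Chrm2, often found on cholinergic nerve endings, gave 20.6, 13.9 and 18.5 in hippocampus, 19.0, 18.5 and 20.9 in cortex and 22.7, 2.61 and 2.65 in amygdala. Neither was tested with the filter. With no filter, no handled region difference of either passed, the smallest adjusted p being 0.213 for Chrm2 in amygdala minus cortex.

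Counted over the 8 kept probe sets, 3 passed between handled amygdala and cortex (1 higher and 2 lower in amygdala), beside 14.7% of all 18625 probe sets. Between handled hippocampus and cortex 4 passed (2 higher and 2 lower in hippocampus), beside 25.9%, and between handled amygdala and hippocampus 5 passed (2 higher and 3 lower in amygdala), beside 28.4%. The median difference of the 8 was -0.47, 0.03 and 0.33 in these 3 comparisons, beside 0.01, -0.01 and 0.02 for all kept probe sets. With 8 probe sets these values are descriptions, and the 3 differences share arrays. The stress arrays share none with the handled arrays and gave the regions a second measurement, though both entered 1 fit and share its estimate of the spread. There, 3 of 8 passed for amygdala and cortex (19.8% of all probe sets), 4 of 8 for hippocampus and cortex (25.3%) and 5 of 8 for amygdala and hippocampus (27.8%). All 3, all 4 and all 5 probe sets that passed in handled arrays also passed in stress arrays, with the same sign, where 61.2%, 71.4% and 67.7% of all probe sets that passed in handled arrays also passed in stress arrays. All 8 had the same sign in both, for each pair of regions, where 70.4%, 75.7% and 75.7% of all kept probe sets did. The genes were chosen with earlier results of these data known, so these shares are descriptions and carry no test.

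In the stress arrays Adra1d stood at 319, 322 and 334 in hippocampus, 164, 152 and 150.2 in cortex and 29.4, 35.6 and 24.8 in amygdala. Its amygdala minus hippocampus difference was -2.90 ± 0.13 (adjusted p 3.14e-14). Chrm3 (1387462_at) stood at 225, 211 and 202 in hippocampus, 180.5, 148 and 158 in cortex and 86.7, 99.6 and 78.6 in amygdala, with amygdala minus hippocampus at -1.14 ± 0.11 (adjusted p 1.98e-08). Both receptors thus kept their handled order. The smaller Chrm3 difference, hippocampus minus cortex, was 0.36 ± 0.11 (adjusted p 0.0154) and did not pass without stress hippocampus replicate 1 (adjusted p 0.0649) or stress cortex replicate 2 (0.0850) or 3 (0.0554). The second Chrm3 probe set was again lower in amygdala than in hippocampus, at -0.73 ± 0.21 (adjusted p 0.0123), but not without stress hippocampus replicate 1 (adjusted p 0.108) or in a fit of these groups alone (0.0579). Its amygdala minus cortex difference (-0.55 ± 0.21, adjusted p 0.0748) passed only with median centring (-0.64, adjusted p 0.0334) or quantile normalization (-0.67, adjusted p 0.0280).

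Adra2a (1393048_at) gave 201, 161 and 139 in stressed amygdala, 127, 153 and 156 in cortex and 45.1, 45.1 and 40.8 in hippocampus, with amygdala minus hippocampus at 1.60 ± 0.14 (adjusted p 2.52e-09). Adra2c gave 92.6, 85.2 and 95.9 in amygdala, 41.3, 40.8 and 37.8 in hippocampus and 35.7, 35.7 and 35.5 in cortex, and its amygdala minus hippocampus difference was 0.94 ± 0.16 (adjusted p 5.95e-05). Amygdala stood apart for Adra2c as it had in handled arrays. Adra1b gave 89.3, 78.4 and 70.1 in stressed cortex, 54.8, 46.9 and 54.8 in amygdala and 32.1, 34.5 and 24.6 in hippocampus, with hippocampus minus cortex at -1.04 ± 0.23 (adjusted p 0.00131). Its 6 group means, from cortex through amygdala to hippocampus, each overlapped the next in their arrays. Stress amygdala minus hippocampus passed for Adra1b only without handled amygdala replicate 3 (0.56, adjusted p 0.01998). Adrb1, at 56.3, 51.4 and 47.8 in cortex and 41.5, 35.7 and 5.15 in hippocampus, did not pass (-0.77 ± 0.32, adjusted p 0.0899), and passed without stress hippocampus replicate 1 (-1.03, adjusted p 0.0362) or handled hippocampus replicate 1 (-0.77, adjusted p 0.0487). Chrm4, at 69.4, 51.7 and 72.9 in amygdala and 33.1, 46.3 and 43.9 in hippocampus, did not overlap between them but did not pass (0.50 ± 0.20, adjusted p 0.0676), except without stress amygdala replicate 2 (0.62, adjusted p 0.0415).

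**Figure D3:**
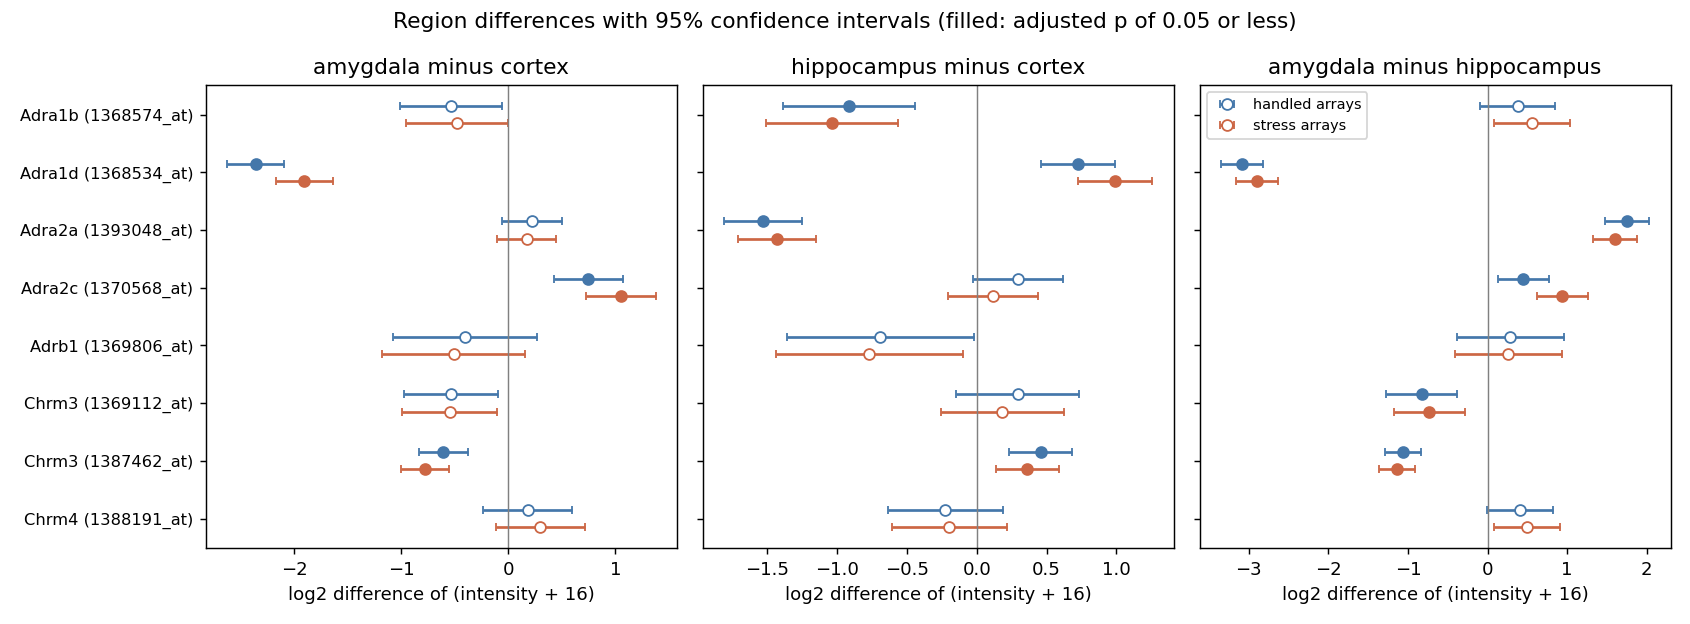
Log2 differences between regions of (intensity + 16) for the 8 kept probe sets, in handled arrays (blue) and stress arrays (orange), with 95% confidence intervals; filled points had an adjusted p of 0.05 or less. In each pair of regions the same probe sets are filled in both colours (3, 4 and 5), and Adra1d has the largest difference from amygdala.

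Cell type markers and RNA measures also moved between the regions. Of all genes, 15.8% were higher and 14.0% lower in handled amygdala than hippocampus. In amygdala against cortex 7.69% were higher and 7.05% lower, and in hippocampus against cortex 13.1% and 14.8%. Of 11 kept markers of striatal neurons, 9 were higher in handled amygdala than hippocampus. In amygdala against cortex 7 were higher and 1 lower, and both are the directions of Adra2c. In hippocampus against cortex 1 was higher and 5 lower, the direction of Adra2a, while Adra2c was at 0.30 there without passing. The summed intensity of the striatal markers was 4020 to 4436 in handled amygdala, 1607 to 1830 in hippocampus and 2178 to 2273 in cortex. These sums came in the order of the Adra2a (1393048_at) means. All 10 oligodendrocyte markers were lower in amygdala than hippocampus and higher in amygdala than cortex. Their sum was 22265 to 24699 in handled hippocampus, 17077 to 18201 in amygdala and 11538 to 12124 in cortex, an order that none of the called receptors had. Of 12 kept markers of meningeal fibroblasts, 10 were lower in amygdala and 10 lower in hippocampus than in cortex, the direction of Adra1b in hippocampus. Their sum was 5067 to 5398 in handled cortex, 2338 to 2502 in hippocampus and 1365 to 1505 in amygdala. Of 7 kept microglia markers, 6 were higher in amygdala than hippocampus and 4 lower in hippocampus than cortex, the directions of Adra2a. Adra2a did not pass between amygdala and cortex, and of the 7 markers 1 was higher in amygdala there. Their sum was 1455 to 1494 in handled amygdala, 1194 to 1312 in cortex and 966 to 978 in hippocampus. Of 8 astrocyte markers, 4 were higher in amygdala than cortex, and 4 higher and 1 lower in amygdala than hippocampus. None of these markers was at 0. The log2 difference between the 3′ and 5′ control probe sets of beta-actin, which rises as RNA is shortened, was 2.07 ± 0.08 (SD, n = 3) in handled amygdala, 1.54 ± 0.23 in hippocampus and 1.66 ± 0.05 in cortex. That of GAPDH was 0.45 ± 0.04, 0.26 ± 0.10 and 0.29 ± 0.04 in the same regions, again highest in amygdala, while that of hexokinase was lowest there, at 0.83 ± 0.08, 1.02 ± 0.11 and 1.11 ± 0.09. The part of these in the receptor differences was not tested.

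Over all 18 arrays, Adra1d and Chrm3 (1387462_at) correlated at r = 0.954, Adra1d and Adra2a (1393048_at) at -0.774, and Adra1d and Adra2c at -0.805. The 18 points fall into 3 regions, so these values restate the region means and carry no test. Adra2a and Adra2c, both alpha-2 receptors, correlated at 0.334, and the alpha-1 receptors Adra1b and Adra1d at -0.184. The highest of these correlations was thus between a receptor for noradrenaline and one for acetylcholine, and not within a class.

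The 2 genes most like each receptor were taken from all named kept probe sets by Pearson's r over the 18 arrays. For Adra1d they were Bcl11a (r = 0.988), a transcription factor, and Medag (0.987). Bcl11a had mean intensities of 433 in handled hippocampus, 299.9 in cortex and 144 in amygdala, a shallower slope than that of Adra1d. For Chrm3 (1387462_at) they were Cops5 (0.971), a subunit of the COP9 signalosome, and Sorl1 (0.964), a sorting receptor. For Adra2a they were Arpp21 (0.982), a cAMP-regulated phosphoprotein, and Camk2d (0.981), a calcium-calmodulin kinase subunit; Arpp21 stood at 211 in hippocampus, 887 in cortex and 921 in amygdala. For Adra2c they were Tshz1 (0.955), a zinc finger transcription factor, and Cd81 (0.949), a tetraspanin. For Adra1b they were Ctnnd2 (0.923), a delta catenin of neurons, and Med13l (0.886), a Mediator subunit.

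Between stress and handling, no receptor passed the test in any region. In amygdala 0 of 8 kept probe sets passed, beside 2.4% of all 18625. In hippocampus 0 passed, beside 0.36%, and in cortex 0, beside 0.403%. For the mean of the 3 stress effects 0 passed, beside 4.66%. The smallest adjusted p was 0.554 in amygdala, 0.579 in hippocampus, 0.419 in cortex and 0.209 for the mean. At an unadjusted p under 0.05 there were 0, 0, 2 and 1 probe sets, where 13.7%, 10.9%, 10.2% and 18.1% of all kept probe sets were. The median difference of the 8 was 0.07 in amygdala, 0.01 in hippocampus and -0.03 in cortex, beside 0.01, 0.00 and 0.00 for all kept probe sets. The largest differences in either direction were -0.30 and 0.23, and the 95% confidence intervals of the 24 single-region effects lay within -0.77 and 0.85. The widest belonged to Adrb1, for which effects of up to 0.85 were not excluded. The dim Chrm1 and Chrm2 are not among these intervals.

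The stress and handled arrays did not overlap for 1 of 8 probe sets in amygdala, 3 in hippocampus and 2 in cortex, where 16.6%, 14.2% and 23.3% of all kept probe sets did not overlap. With 3 arrays against 3, an exact permutation test of 1 probe set cannot go below 0.1.

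In cortex, Adra1d was 195, 188 and 199 on the handled arrays and 164, 152 and 150.2 on the stress arrays. All stress values were below all handled values, a 1.25-fold difference in means. The log2 difference was -0.29 ± 0.13, with an interval from -0.56 to -0.03, an unadjusted p of 0.0324 and an adjusted p of 0.419. In amygdala it was 0.16 ± 0.13 and in hippocampus -0.03 ± 0.13, with overlapping arrays in both.

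Chrm3 (1387462_at) had the other non-overlapping cortex values, at 125, 141 and 139 on handled and 180.5, 148 and 158 on stress arrays. The difference was 0.23 ± 0.11 (unadjusted p 0.0417, adjusted p 0.454). In hippocampus it was 199.7, 190.1 and 185 against 225, 211 and 202, also without overlap, at 0.14 ± 0.11 (adjusted p 0.685), and in amygdala 0.07 ± 0.11. All 3 differences of this probe set were above 0, with a mean of 0.15 ± 0.06 (adjusted p 0.209). The second Chrm3 probe set went the other way in all 3 regions, at -0.16 in amygdala, -0.26 in hippocampus and -0.15 in cortex, with a mean of -0.19 ± 0.12 (adjusted p 0.436). The 2 probe sets of this gene thus gave no common direction.

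Adra2c was 69.4, 75.8 and 81.2 on handled and 92.6, 85.2 and 95.9 on stress amygdala arrays, without overlap, at 0.23 ± 0.16 (adjusted p 0.554). In hippocampus it was 53.7, 43.5 and 56.0 against 41.3, 40.8 and 37.8, also without overlap but in the other direction, at -0.26 ± 0.16 (adjusted p 0.579). In cortex, at -0.07 ± 0.16, the arrays overlapped. Adra2a (1393048_at) was 35.2, 39.5 and 36.0 on handled and 45.1, 45.1 and 40.8 on stress hippocampus arrays, without overlap, at 0.17 ± 0.14 (adjusted p 0.686). In amygdala, at 0.03 ± 0.14, and cortex, at 0.08 ± 0.14, its arrays overlapped.

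For Adra1b the stress mean was the lower one in all 3 regions, at -0.11, -0.30 and -0.17 in amygdala, hippocampus and cortex, and the mean effect was -0.19 ± 0.13 (adjusted p 0.472). For Adrb1 the 3 differences were 0.07, 0.10 and 0.17, with arrays that overlapped in each region. For Chrm4 they were 0.14, 0.05 and 0.02, again with overlap. The dim Chrm1 and Chrm2 probe sets did not pass with no filter, the smallest adjusted p in a region being 0.813 for Chrm1 in cortex, where the handled arrays gave 37.9, 29.9 and 7.47 and the stress arrays 36.5, 31.9 and 56.3. The dim Adra2a probe set lay above its handled amygdala range on all 3 stress arrays (6.89, 4.53 and 13.7 against 17.9, 24.0 and 14.98), without passing (0.53 ± 0.26, adjusted p 0.461).

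**Figure D4:**
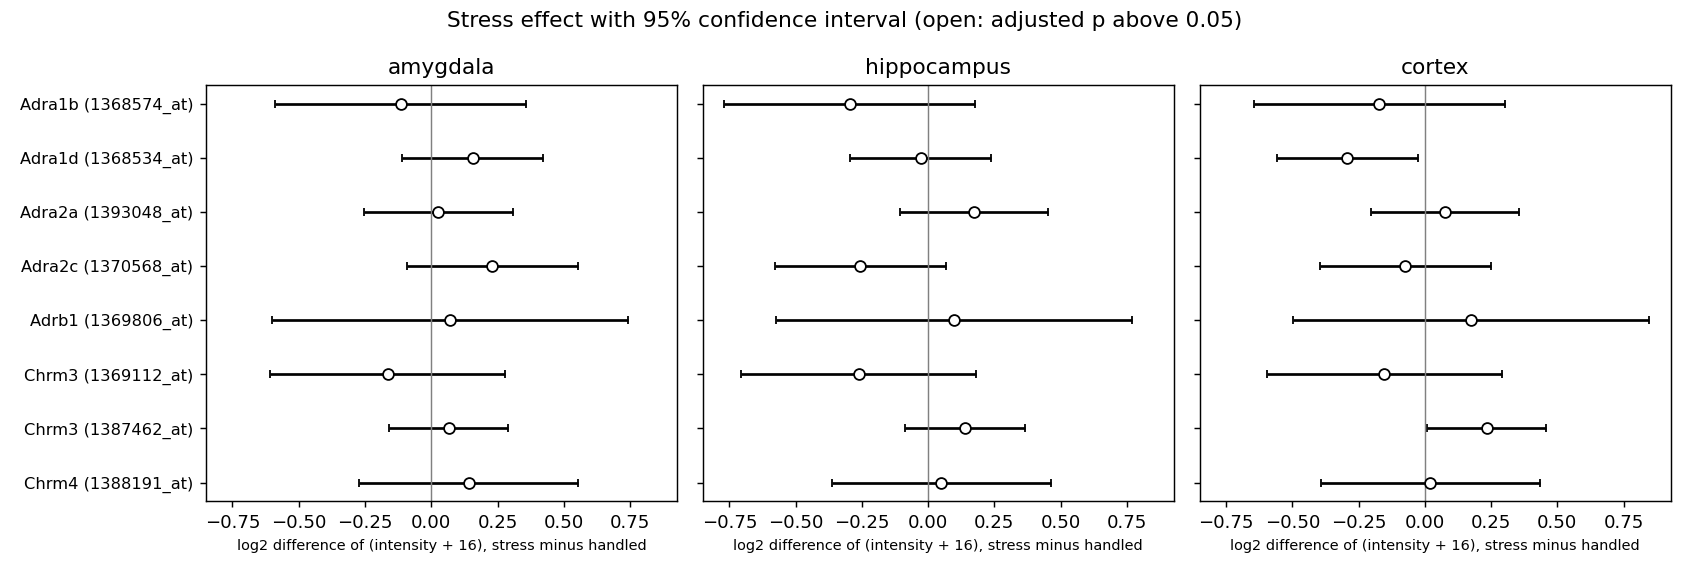
Stress minus handled log2 difference of (intensity + 16) for the 8 kept probe sets in each region, with 95% confidence intervals; open points had an adjusted p above 0.05, which was the case for all 24. Only the cortex intervals of Adra1d and Chrm3 (1387462_at) do not reach 0.

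Whether a stress effect differed between regions was tested as a difference of the 2 effects. No receptor passed. For amygdala against cortex 0 of 8 passed (0.129% of all probe sets), for hippocampus against cortex 0 (0.0859%) and for amygdala against hippocampus 0 (0.0483%). Unadjusted p values under 0.05 came from Adra1d, at 0.45 ± 0.18 for the effect in amygdala minus that in cortex (adjusted p 0.412), and Adra2c, at 0.49 ± 0.22 for amygdala minus hippocampus (adjusted p 0.586).

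Other measures did move between stress and handled arrays of a region. In cortex, 7 of 12 kept markers of meningeal fibroblasts fell under stress, beside 0.312% of all genes. Their summed intensity was 5067 to 5398 in handled and 2295 to 2392 in stress arrays. In amygdala, 2 of 11 striatal markers rose, Ppp1r1b and Penk, beside 0.488% of all genes. The sum was 4020 to 4436 in handled and 5196 to 5416 in stress arrays. In hippocampus, 2 of 6 choroid plexus markers, Ttr and Sostdc1, rose (0.137% of all genes), with sums of 1331 to 1522 and 3700 to 3911. There, 2 of 10 oligodendrocyte markers, Cldn11 and Bcas1, fell (0.263% of all genes). None of these lists had a marker at 0. The 3′ minus 5′ difference of the hexokinase controls was 0.83 ± 0.08 (SD, n = 3) in handled and 1.23 ± 0.07 in stress amygdala. It was 1.02 ± 0.11 and 1.17 ± 0.15 in hippocampus, and 1.11 ± 0.09 and 1.28 ± 0.12 in cortex. The other controls did not part in amygdala, at 0.45 ± 0.04 and 0.45 ± 0.08 for GAPDH and 2.07 ± 0.08 and 2.15 ± 0.24 for beta-actin. Their part in the receptor values was not tested.

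Among 70 further genes of the 2 transmitter systems and their signalling, 40 had a kept probe set. In amygdala 1 of the 40 passed as higher under stress and 0 as lower, beside 1.92% of all genes (1 kept probe set each) in both directions. It was Itpr1, the channel that releases calcium when Gq-coupled receptors act, at 880 in handled and 1021 in stress rats (0.21 ± 0.06, adjusted p 0.0448). This call was lost in 20 of 27 alternatives, and among the arrays left out it held only without stress amygdala replicate 1, stress hippocampus replicate 2 or handled hippocampus replicate 1. Its adjusted p ran from 0.00668 to 0.311. In hippocampus and cortex 0 of the 40 passed, beside 0.4% and 0.449% of all genes. For the mean of the 3 effects 1 of the 40 passed as higher and 0 as lower, beside 4.46% of all genes in both directions. It was Kcnj6, a potassium channel subunit opened by Gi-coupled receptors (0.18 ± 0.04, adjusted p 0.0202). Its adjusted p was 0.0511 when no trend of the variance with intensity was fitted. The median difference of the 40 was -0.01 in amygdala, 0.01 in hippocampus and 0.02 in cortex. That of all genes was 0.02, 0.01 and -0.01.

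Of 12 other acetylcholine receptors, 2 were kept, the nicotinic subunits Chrna4 and Chrna7. Of the 6 genes of acetylcholine synthesis, packaging, uptake and breakdown, 1 was kept, Slc5a7, the choline transporter. Of the 9 of noradrenaline, 3 were kept: Ddc, which makes dopamine from its precursor, and Maoa and Maob, which break down monoamines.

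Between regions, in handled rats, 3 of the 40 were higher and 8 lower in amygdala than cortex, where 7.69% of all genes were higher and 7.05% lower. In hippocampus against cortex 3 were higher and 14 lower (13.1% and 14.8% of all genes), and in amygdala against hippocampus 13 were higher and 7 lower (15.8% and 14.0%). Chrna4 had mean intensities of 84.9 in cortex, 57.6 in amygdala and 12.3 in hippocampus, and hippocampus minus cortex was -1.93 ± 0.28 (adjusted p 1.18e-05). The order of its means over the regions was that of Adra1b and unlike that of Chrm3.

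In the Gq pathway, 9 genes were kept. Gna14, a Gq-family alpha subunit, stood at 123 in hippocampus, 52.2 in cortex and 27.3 in amygdala, the order of Adra1d and Chrm3, and passed in each of the 3 differences. Plcb4, a phospholipase that Gq activates, stood at 370 in cortex, 155 in amygdala and 94.2 in hippocampus, and Plcb1, a second one, at 1386 in amygdala, 1126 in hippocampus and 1030 in cortex. Itpr1 stood at 1930 in cortex, 1506 in hippocampus and 880 in amygdala. Prkca, a protein kinase C, was at 145 in hippocampus, 60.9 in cortex and 60.8 in amygdala. The means of the Gq genes thus came in several orders of regions.

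In the Gi and Go pathway, 7 genes were kept, of which 1 was higher and 3 lower in amygdala than hippocampus. In hippocampus against cortex 1 was higher and 2 lower. Gnai2, an inhibitory alpha subunit, was at 395 in amygdala, 350.0 in cortex and 241 in hippocampus, low in hippocampus as Adra2a was. Kcnj6 ran the other way, at 679 in hippocampus, 338 in cortex and 298 in amygdala. In the Gs pathway 13 genes were kept, of which 7 were higher and 1 lower in amygdala than hippocampus. Prkar2b, a regulatory subunit of protein kinase A, stood at 669 in cortex, 621 in amygdala and 238 in hippocampus, with amygdala minus hippocampus at 1.32 ± 0.07 (adjusted p 4.64e-13). Prkacb, a catalytic subunit, stood at 3472, 3384 and 1855 in the same regions. Of the 5 kept receptor kinases and arrestins, Arrb1, an arrestin, was higher in amygdala than hippocampus (0.26 ± 0.09, adjusted p 0.0403) and Grk6, a receptor kinase, lower in hippocampus than cortex (-0.35 ± 0.11, adjusted p 0.0203).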

How the data were processed

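Total RNA of rat amygdala, hippocampus and cortex, from stressed and handled rats, was measured on 18 arrays, 3 for each of 6 groups. The deposited values are linear intensities per probe set. They look scaled to a common level: the mean without the top and bottom 2% was between 150.04 and 150.05 on each array. The summarisation software is not given in the sources used here. Intensities were log2 transformed after adding 16. The 57 control probe sets were left out, and probe sets under the 40th percentile of mean log2 value were removed, leaving 18625. Groups were compared in 1 limma fit of the 18 arrays (limma 3.58.1, R 4.3.3, variance trend, Benjamini-Hochberg adjustment; 12 residual and 10.2 prior degrees of freedom), tested on simulated data. The number of arrays limits the precision.

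Gene names came from the platform's annotation, updated through Entrez IDs or accessions: 20832 probe sets had 1 symbol, 436 several and 9831 none. All probe sets of the members are reported. The members and gene lists were chosen with earlier results of these data known. The 2 most alike genes were named for each member whose brightest probe set passed in a handled region difference, and listed pathway genes were named where they passed under stress. Pathway genes named in region differences, and the markers named, were chosen after their values were seen. No 2 arrays were identical. Rank correlations within groups were 0.954 to 0.985. Alternatives were the added constant, the filter, the scaling, the variance model, the arrays fitted, a replicate block and leaving out each array.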

Additional observations from a re-analysis of the deposited data

Results flagged for a closer look

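Adra2c stood out because its 3 stress arrays lay above the handled arrays in amygdala (92.6, 85.2 and 95.9 against 69.4, 75.8 and 81.2) and below them in hippocampus (41.3, 40.8 and 37.8 against 53.7, 43.5 and 56.0). The stress effect in amygdala minus that in hippocampus was 0.49 on the log2 scale, with an adjusted p of 0.586 (limma), so it did not pass the test of the difference. Of 18625 kept probe sets, 99 (0.532%) had arrays that parted in opposite directions in these 2 regions. The share was 1.15% for amygdala and cortex and 0.768% for hippocampus and cortex. Adra2c was picked for this pattern from 8 kept receptor probe sets, looked at in each pair of regions, so these shares carry no test. Over the alternatives this difference ran from 0.30 to 0.61, with adjusted p values from 0.400 to 0.840.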

How the results depend on the processing

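Up to 27 alternatives were run per result. The counts of receptor probe sets that passed stayed within 1.5 times the reported count, and at 0 in every stress comparison, with 1 exception: with a filter at the 60th percentile, 3 instead of 5 passed for handled amygdala minus handled hippocampus and 3 instead of 5 for stress amygdala minus stress hippocampus. That filter tests fewer probe sets. Leaving out each array gave 4 to 6 for both. Of 24 receptor differences that passed, 21 passed under every alternative, none changed sign, and 11 of 640 refits lost the call, those of Adra2c and Chrm3 given above. Of 24 region differences that did not pass, 9 of 626 refits passed. None of the 32 stress effects or the 24 differences of stress effects passed in any refit, and 10 and 14 of them changed sign in at least 1. Adding 64 instead of 16 lowered several differences over 1.5-fold without changing their calls, among them handled hippocampus minus cortex for Adra2a (-0.99 against -1.53) and Adra1b (-0.57 against -0.92) and handled amygdala minus cortex for Adra2c (0.44 against 0.75).

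Same-numbered arrays of different groups did not deviate together (45 pairs, correlations from -0.04 to 0.10, 1 over 0.1), so the numbers were not taken to pair samples. With the replicate number as a block, the counts of receptors that passed were 0 in the 3 stress comparisons, the call of Itpr1 was lost (adjusted p 0.0581) and no receptor's call changed. Median centring moved the median of all probe sets for stress amygdala minus stress hippocampus from 0.03 to -0.08 and the share of higher calls from 54.1% to 33.3%. A fit of the cortex groups alone called 560 instead of 75 probe sets under stress, none of them a receptor. A fit of only the groups compared does not apply to the mean of the 3 stress effects, which uses all arrays. Dim intensities limit Adrb1, Chrm1, Chrm2 and the second Adra2a probe set.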
